A study of Homo sapiens with 2 samples.

Results

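Keratins are the intermediate filament proteins of epithelial cells, and 10 of their genes were followed here on a pair of arrays of the colorectal cancer line SW620: KRT5, KRT7, KRT8, KRT15, KRT17, KRT18, KRT19, KRT20, KRT23 and KRT80. Their probe sets were taken where the platform annotation names 1 of these symbols and no other. This gave 13 probe sets for 9 genes, out of 41091 probe sets with 1 symbol and 19775 genes. KRT17, a keratin of stressed and basal epithelium, was not analysed here.

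SW620 is an established human line grown from a colorectal carcinoma that had spread to a lymph node. Both cultures were grown in RPMI-1640 and carried a lentiviral short hairpin RNA, so the control shares the vector with the treated culture. In the mock knockdown culture the hairpin had no target, and in the SOX2 knockdown culture it was directed against SOX2, a transcription factor of progenitor cells. The sequence of the hairpin, the number of hairpins and the time after infection were not stated in the labels used here. Each group held 1 array of 1 culture, so no difference could be tested, and their number limits the precision of every value. The question named in the labels is which genes SOX2 controls in such cells. A further label of both samples speaks of mouse liver lacking ECM1, which matches neither the organism nor the source names. The sample titles end in KO, where the source names say knockdown, the word used here.

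A keratin filament is built from pairs of a type I (acidic) and a type II (basic) chain. In the simple epithelium of the gut KRT8 is the type II chain, and KRT18, KRT19 and KRT20 are type I chains that pair with it. KRT20 is restricted in normal gut mainly to the more differentiated cells, and pathologists read KRT20 together with KRT7 to separate colorectal from other carcinomas. KRT5 and KRT15 belong to the basal layer of stratified epithelium.

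By far the largest difference among the 9 keratins was that of KRT20, whose level in the SOX2 knockdown culture was at least 157 times that in the mock culture. KRT7, the other keratin of the diagnostic pair, was 3.00-fold lower at its brightest probe set, though not at its others. The remaining 7 keratins, among them the abundant KRT8, KRT18 and KRT19, lay within 2-fold of the mock value.

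Promoter sequence was at hand for 3 of the 10 genes. It is shown for KRT20, the gene that differed most, beside KRT8, which was 1.58-fold higher, and KRT5, which was dim on both arrays. The windows are from RefSeq on build GRCh38.p14 and run from 250 bases before to 50 bases after a start site. They are chr17:40885193-40885492 for KRT20, chr12:52926420-52926719 for KRT8 and chr12:52520345-52520644 for KRT5, each on the minus strand. For KRT8 the RefSeq gene model extends upstream of this window, so it shows only the start listed. Whether the KRT8 transcripts measured here begin at that start was not tested, so the window may not be the promoter behind the KRT8 signal. Capitals mark the letters ACAAAG or ACAATG, the core that SOX proteins recognise, on either strand.
KRT20: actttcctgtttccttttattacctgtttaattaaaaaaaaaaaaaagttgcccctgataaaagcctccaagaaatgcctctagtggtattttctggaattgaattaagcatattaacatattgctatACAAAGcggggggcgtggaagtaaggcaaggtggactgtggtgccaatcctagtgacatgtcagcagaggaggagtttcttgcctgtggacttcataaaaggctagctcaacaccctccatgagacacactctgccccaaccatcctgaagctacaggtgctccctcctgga
KRT8: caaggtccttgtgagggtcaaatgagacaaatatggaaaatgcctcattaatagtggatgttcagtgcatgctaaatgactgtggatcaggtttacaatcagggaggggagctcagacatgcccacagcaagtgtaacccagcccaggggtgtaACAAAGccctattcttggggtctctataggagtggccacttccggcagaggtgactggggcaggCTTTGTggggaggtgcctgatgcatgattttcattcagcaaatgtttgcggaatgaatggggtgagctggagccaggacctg
KRT5: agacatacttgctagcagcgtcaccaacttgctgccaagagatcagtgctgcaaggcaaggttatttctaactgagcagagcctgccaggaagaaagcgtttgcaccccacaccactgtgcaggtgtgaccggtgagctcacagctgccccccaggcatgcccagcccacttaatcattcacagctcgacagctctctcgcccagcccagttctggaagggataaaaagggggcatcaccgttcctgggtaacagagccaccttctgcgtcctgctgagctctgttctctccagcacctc
ACAAAG stands once in the KRT20 window, beginning 122 bases before the start site, and 2 times in that of KRT8, beginning 96 and 32 bases before it, the latter on the opposite strand. The KRT5 window holds neither core. Of 35116 windows of the same length, 24.5% hold at least 1 of these cores, so a match is common and describes only the letters. The KRT20 window also holds CATAAA, a core bound by CDX homeobox factors of the intestine, beginning 29 bases before the start, and the KLF core GGGCGTG, beginning 112 bases before it. CATAAA is found in 10.6% and GGGCGTG in 8.68% of all windows, on either strand, and neither is in the KRT8 or KRT5 window. The exact letters TATAAA, the TATA box core, are in none of the 3 and in 11.5% of all windows. They share ATAAA with CATAAA, and ATAAA also stands in the KRT5 window. Variants of the TATA box were not searched, so the 3 windows may still hold one. Whether CATAAA in the KRT20 window acts as a CDX site or as a TATA box was not tested. No marked SOX core overlaps another motif searched.

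Values are intensity of a probe set on a linear scale, and each difference is the log2 value of the SOX2 knockdown array less that of the mock array. The median of all values, an intensity of 68.5 or 6.10 on the log2 scale, served as a floor for dim probe sets, and where a value lay under it the fold is taken against the floor and is a bound. A gene is described by its probe set with the highest mean. The arrays had median intensities of 69.0 (mock) and 68.1 (SOX2 knockdown). Of the targeted gene, probe set 228038_at read 2077 with the mock hairpin and 20.9 with the SOX2 hairpin, at least 30.3-fold lower, while 213721_at read 333 and 120, and the remaining 2 probe sets stayed under the floor on both. The epithelial nature of the line showed in EPCAM, at 8910 and 9898. Of 13 colorectal epithelial markers, 9 reached the floor with the mock hairpin and 12 with the SOX2 hairpin, where only PHGR1 stayed under it. By 2-fold or more 3 were higher (KRT20, LGALS4 and CDH17) and 1 lower (VIL1), against 8.44% and 7.29% of all 13609 genes that reached the floor. CDH17 read 35.5 and 78.0, so its count rests on a mock value under the floor. LGALS4, a galectin of gut epithelium, read 39.1 and 6010, at least 87.7-fold higher. VIL1, the villin of microvilli, read 2063 and 867, and its 4 probe sets ran from -1.25 to -0.19. The surface antigen GPA33 differed by -0.20. KRT20, KRT8, KRT18 and KRT19 are themselves on that marker list, and its summed intensity was 50716 and 80199.

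Other cell types were checked in the same way. PTPRC and CD3E of leukocytes, COL1A2 and COL3A1 of fibroblasts, CDH5 of endothelium, KRT14 of basal epithelium and ALB and APOB of hepatocytes lay under the floor on both arrays. Other markers reached it on at least 1 array: 1 of 3 for leukocytes, 5 of 7 for fibroblasts, 2 of 3 for endothelium, 4 of 5 for basal and squamous epithelium and 4 of 6 for hepatocytes. Among them COL1A1 of fibroblasts read 290 and 237, and PECAM1 of endothelium 123 and 105. Summed intensities on the mock and SOX2 knockdown arrays were 122 and 237 for 3 leukocyte markers, 745 and 657 for 7 fibroblast markers, 256 and 224 for 3 endothelial markers, 2857 and 4116 for 5 basal and squamous markers and 706 and 4741 for 6 hepatocyte markers. By 2-fold or more, 1 marker was higher in each of the leukocyte, basal and squamous, and hepatocyte lists, and 1 was lower in the fibroblast list. Of all genes, 8.44% were higher and 7.29% lower by as much. The protease inhibitor SERPINA1 read 313 and 4301, and SERPINB5, a serpin of squamous epithelium, 49.6 and 736. CD14 was the leukocyte marker that reached the floor, on the SOX2 knockdown array alone, at 43.6 and 156. LUM of fibroblasts read 71.7 and 17.8. The part of these markers in the keratin values was not tested. In such a bulk extract, a change in the share of cells that hold a transcript and a change in the amount per cell cannot be told apart.

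KRT8, the type II chain of simple epithelium, was bright on both arrays. Its only probe set, 209008_x_at, read 10731 with the mock hairpin and 16992 with the SOX2 hairpin. The difference was 0.66, or 1.58-fold, and 26.1% of the 13609 genes that reached the floor on at least 1 array differed by more, in either direction. The suffix of this probe set marks probes that can match several transcripts. KRT8P12, a pseudogene of KRT8, has probe sets of its own. The first, 222060_at, went from 263 to 458, a difference of 0.80 close to that of KRT8, and the second, 230116_at, from 131 to 129. How far KRT8 and its copies share signal was not tested.

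KRT18, the usual type I partner of KRT8, read 17410 with the mock hairpin and 21262 with the SOX2 hairpin at 201596_x_at. Its difference of 0.29 was 1.22-fold, and 51.2% of genes differed by more. The SOX2 knockdown value lies just under the highest value on that array, 21562, and whether the upper end of the scale narrowed the difference was not tested. KRT19, the smallest type I keratin, can also pair with KRT8. Its bright probe set, 201650_at, read 9218 and 10273, a difference of 0.16, and its dim one, 228491_at, read 99.9 and 108, a difference of 0.11. Both probe sets of KRT19 therefore put it slightly higher, by 11.4% and 7.68%. KRT8, KRT18 and KRT19 shared a direction, but the differences of KRT18 and KRT19 were smaller than the SD of 0.49 between probe sets of the same gene, and that of KRT8 was larger. This SD, over 6440 genes, holds no variation between cultures, which the design does not measure.

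KRT20, the type I keratin of differentiated gut epithelium, is represented by 1 probe set, 213953_at. It read 23.2 with the mock hairpin, under the floor, and 10763 with the SOX2 hairpin. The deposited values differ by 8.86 on the log2 scale, and against the floor KRT20 was higher by at least 7.30, or at least 157-fold. No second probe set of KRT20 is available to set beside it. KRT20 thus lay under the floor in the mock culture and well above it in the SOX2 knockdown culture, while KRT8, the type II chain with which it can pair, was well above the floor in both.

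**Figure D1:**
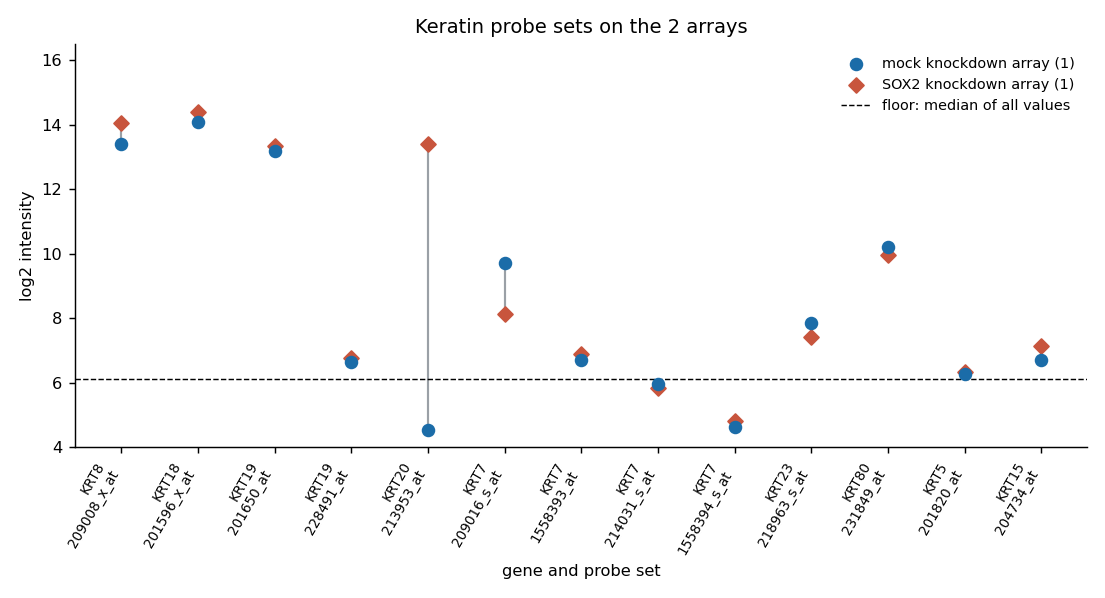
The y axis gives log2 intensity, and each position on the x axis is 1 of the 13 probe sets of the 9 keratins, with circles for the mock knockdown array, diamonds for the SOX2 knockdown array and the dashed line at the floor of 6.10. KRT20 lies far apart between the arrays, 209016_s_at of KRT7 is lower on the SOX2 knockdown array, and the remaining pairs lie close together.

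KRT7, a type II keratin of ductal and glandular epithelium that most colorectal cancers lack, had 4 probe sets that did not move together. The brightest, 209016_s_at, read 842 with the mock hairpin and 281 with the SOX2 hairpin. The difference was -1.58, so 33.4% of the mock level remained, and 469 of the 13609 genes, KRT7 included, differed by that much or more downward. The next, 1558393_at, read 104 and 118, a difference of 0.19. The last pair, 214031_s_at and 1558394_s_at, stayed under the floor on both arrays at 62.4 and 57.0 and at 24.5 and 28.0. The lower level of KRT7 therefore rests on 1 of the 2 probe sets that reached the floor. KRT7 and KRT20 went in opposite directions at their brightest probe sets.

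KRT23 is a type I keratin found in gastrointestinal cancers. Its only probe set, 218963_s_at, read 228 with the mock hairpin and 171 with the SOX2 hairpin, a difference of -0.42, and 40.2% of genes differed by more. KRT23 lies next to KRT20 on chromosome 17, and its level was 25.2% lower where KRT20 was higher. KRT80 is a type II keratin tied to cell junctions and to epithelial differentiation. It read 1191 and 1002 at 231849_at, a difference of -0.25, smaller in size than that of 55.3% of genes. Both KRT23 and KRT80 were thus slightly lower, by less than the SD of 0.49 between probe sets of a gene.

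The keratins of the basal layer were dim. KRT5, the type II chain of basal cells, read 76.4 with the mock hairpin and 79.5 with the SOX2 hairpin at 201820_at, just above the floor, and the difference was 0.06. KRT15, a type I chain of basal and hair follicle stem cells, read 105 and 141 at 204734_at, a difference of 0.42. KRT14, the usual partner of KRT5, stayed under the floor with 37.3 and 40.4. The basal keratins were thus near or under the floor on both arrays. KRT15 was 1.34-fold higher, by less than the SD of 0.49 between probe sets of a gene.

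All 9 measured keratins reached the floor on at least 1 array. At a limit of 2-fold, 1 of the 9 was higher and 1 lower, or 22.2% in all, against 15.7% of all 13609 genes, of which 8.44% were higher and 7.29% lower. At 1.5-fold 2 were higher (KRT8 and KRT20) and 1 lower (KRT7), or 33.3% against 29.8% of all genes. The shares of keratins past either limit thus lay near those of all genes. The median difference of the 9 was 0.16, that of KRT19, and the median of all genes was -0.0063. KRT20 alone stands far out in this group, and on the deposited scale 1 gene of the 13609 had a larger difference.

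**Figure D2:**
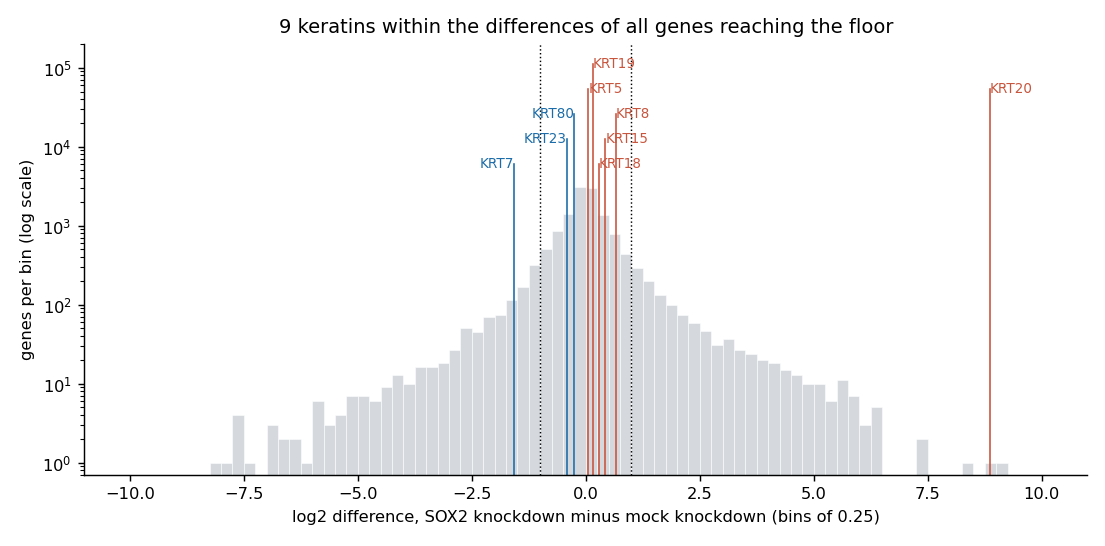
The x axis gives the log2 difference, SOX2 knockdown minus mock knockdown, in bins of 0.25, and the y axis, a log scale, the number of the 13609 genes in each bin (grey). Coloured lines mark the 9 keratins at their brightest probe sets and dotted lines 2-fold; KRT20 stands at 8.86 and KRT7 at -1.58, and the other 7 lie between the dotted lines.

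Beyond these 9, a further 35 keratin genes had a probe set of their own. Of these, 22 stayed under the floor on both arrays, among them the epidermal KRT1 and KRT2 and the hair keratins KRT31 and KRT35. Of the 13 that reached it, 1 was at least 2-fold higher and 1 at least 2-fold lower, against 8.44% and 7.29% of all genes. Both counts lay near those shares. KRT13, a type I keratin of the upper layers of wet stratified epithelium such as the oesophagus, read 31.4 with the mock hairpin and 784 with the SOX2 hairpin. KRT13 was at least 11.4-fold higher, on 1 probe set whose suffix (207935_s_at) marks possible matches to related transcripts. KRT40, a hair-type type I keratin, read 894 and 75.9 at 1562629_a_at, a difference of -3.56 or 11.8-fold lower. Its other probe set, 1562628_at, read 383 and 12.9, so both probe sets of KRT40 were lower. KRT10, the type I chain of the upper epidermis, was bright and nearly level, with 1858 and 1736 at its brightest probe set and differences from -0.10 to -0.04 over 3 probe sets.

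Set out in gene order, the keratins with large differences stood singly. Type II genes lie together on chromosome 12, with KRT18 at their end, and the other type I genes on chromosome 17. Of 24 type I genes, 13 reached the floor, with 2 at least 2-fold higher and 1 lower. Of 20 type II genes, 9 reached it, with none at least 2-fold higher and 1 lower. Of all genes, 8.44% were higher and 7.29% lower by as much, and a contrast between the types was not tested. KRT20 has KRT10 before it and KRT23 after it among coding genes that reached the floor, with differences of -0.10 and -0.42. KRT40 follows KRT23, with 1 coding gene between them. A gene at least 157-fold higher and one 11.8-fold lower were thus parted, among the genes that reached the floor, by KRT23 alone. KRT13 stands beside KRT15, at 0.42, and KRT19 follows at 0.16. On chromosome 12 KRT80 lies between ATG101, an autophagy gene that read 1011 and 998, and KRT7.

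**Figure D3:**
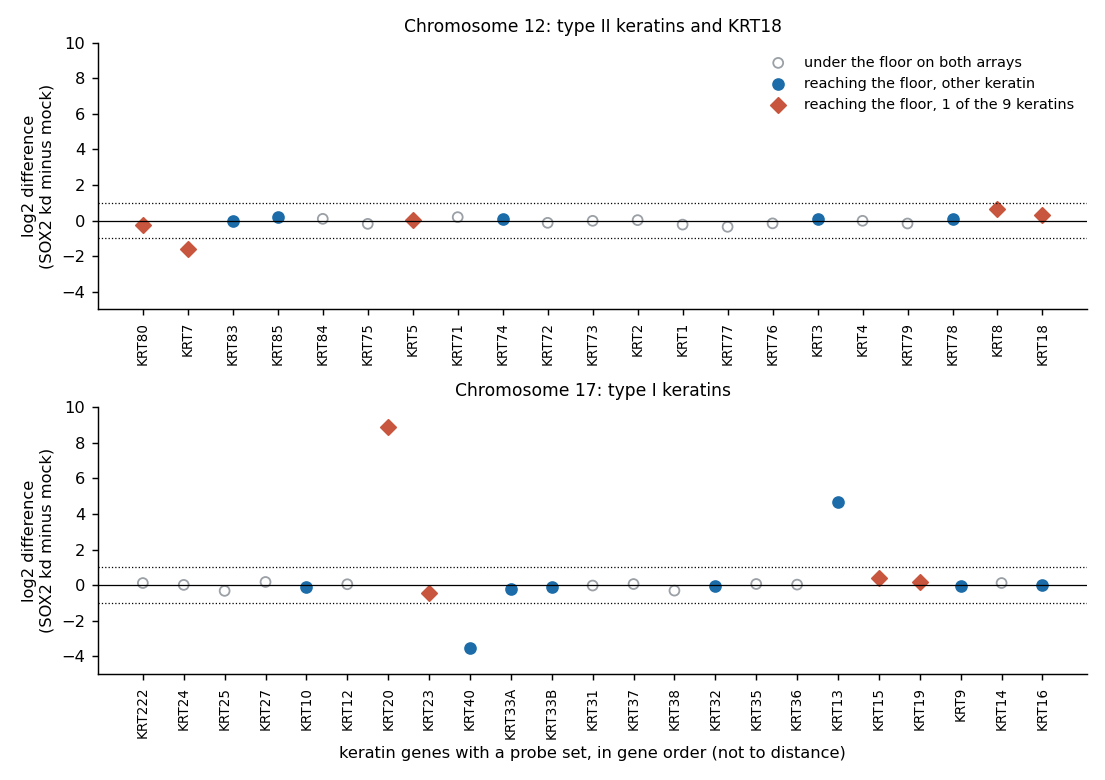
Each point is 1 of 44 keratin genes in its order along chromosome 12 (top) or chromosome 17 (bottom), spaced evenly, and the y axis gives the log2 difference, SOX2 knockdown minus mock knockdown, with dotted lines at 2-fold. Diamonds are the 9 keratins, filled circles other keratins that reached the floor and open circles those under it on both arrays; KRT20, KRT13 and KRT40 stand apart, with KRT7 the lowest on chromosome 12.

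Keratin filaments end on plakins and desmosomes, which tie them to the cell border. Of 15 such genes 13 reached the floor, and their median difference was 0.40, with 4 higher by 2-fold or more and 1 lower by as much, against 8.44% and 7.29% of all genes. DSC2, a desmosomal cadherin, read 115 with the mock hairpin and 1025 with the SOX2 hairpin, and its 3 probe sets reaching the floor differed by 2.21 to 3.15. EPPK1 (epiplakin), which binds keratin bundles, read 137 and 666, but its 4 probe sets reaching the floor ran from 0.09 to 2.60. JUP, the plakoglobin of desmosomes and adherens junctions, read 506 and 1424, and the cornified envelope plakin PPL 480 and 1071. The central keratin linker went the other way. DSP (desmoplakin) read 4313 and 1578, a difference of -1.45 on 1 probe set. DST (dystonin), a plakin of hemidesmosomes, read 722 and 423, and its 5 probe sets reaching the floor were all lower, by -3.54 to -0.55. DSG2, a brighter desmosomal cadherin, read 2587 and 3552, a difference of 0.46 and within 2-fold. Anchoring genes were thus not uniform, with the cadherin DSC2 and plakoglobin at least 2-fold higher and desmoplakin at least 2-fold lower.

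Among transcription factors that act on keratin and other epithelial genes, 14 of the 15 with a probe set reached the floor. Of these 4 were at least 2-fold higher, against 8.44% of all genes, and 1, SOX2 itself, was lower, against 7.29%. The median was 0.53, and 0.64 without SOX2. GRHL2, a grainyhead factor of epithelial junction genes, read 35.9 with the mock hairpin and 420 with the SOX2 hairpin, at least 6.13-fold higher. EHF, an epithelial ETS factor, read 942 and 7323, a difference of 2.96, with 1.85 to 2.98 over 5 probe sets. GRHL1 read 135 and 430, although its other probe set differed by only 0.59, and ELF3, a further epithelial ETS factor, read 283 and 771. CDX2, the homeobox factor of intestinal identity, read 69.2 and 116, a difference of 0.74 from a mock value close to the floor. CDX1 read 130 and 133, and KLF4, a factor of differentiated gut and skin, 374 and 385. The 4 genes higher by 2-fold or more were thus GRHL1 and GRHL2 of the grainyhead family and EHF and ELF3 of the ETS family, while CDX1 and KLF4 stood level.

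Proteins that bind, modify or degrade keratins were measured for 10 of 14 listed genes. All 10 reached the floor, their median was 0.33, and 3 were higher by 2-fold or more with none lower by as much, against 8.44% and 7.29% of all genes. FAM83H, which organises keratin filaments, read 622 with the mock hairpin and 1716 with the SOX2 hairpin, a difference of 1.46. PRKCE, a protein kinase C linked to keratin phosphorylation, read 111 and 259, though another probe set differed by 0.06. CASP6, a caspase that cleaves KRT18 in apoptosis, read 477 and 1069, with a difference of 1.17 and a second probe set that was higher too. TRADD, an adaptor of the TNF receptor that binds KRT18, was lower, at 714 and 435.

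Among filament genes other than keratins, VIM and NES were lower by 2-fold or more and LMNA higher by as much. VIM, the vimentin of mesenchymal cells, read 8652 with the mock hairpin and 72.2 with the SOX2 hairpin, a value close to the floor. Its other probe set stayed under the floor on both arrays and differed by -0.03. NES, the nestin of progenitor cells, read 869 and 46.6, at least 12.7-fold lower, while its other probe set differed by -0.04. LMNA, the A-type lamin of the nuclear envelope, read 2457 and 5504, and its 5 probe sets reaching the floor ran from 0.19 to 1.59. LMNB1 and LMNB2, the B-type lamins, differed by 0.24 and 0.07. In all 8 of 16 such genes reached the floor, with a median of 0.05, and the neurofilament genes NEFL, NEFM and NEFH stayed under it on both arrays; 1 higher and 2 lower gene compare with 8.44% and 7.29% of all genes. The mock array thus showed KRT8, KRT18, KRT19 and VIM together, and the SOX2 knockdown array the same keratins with KRT20 added and VIM near the floor.

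**Figure D4:**
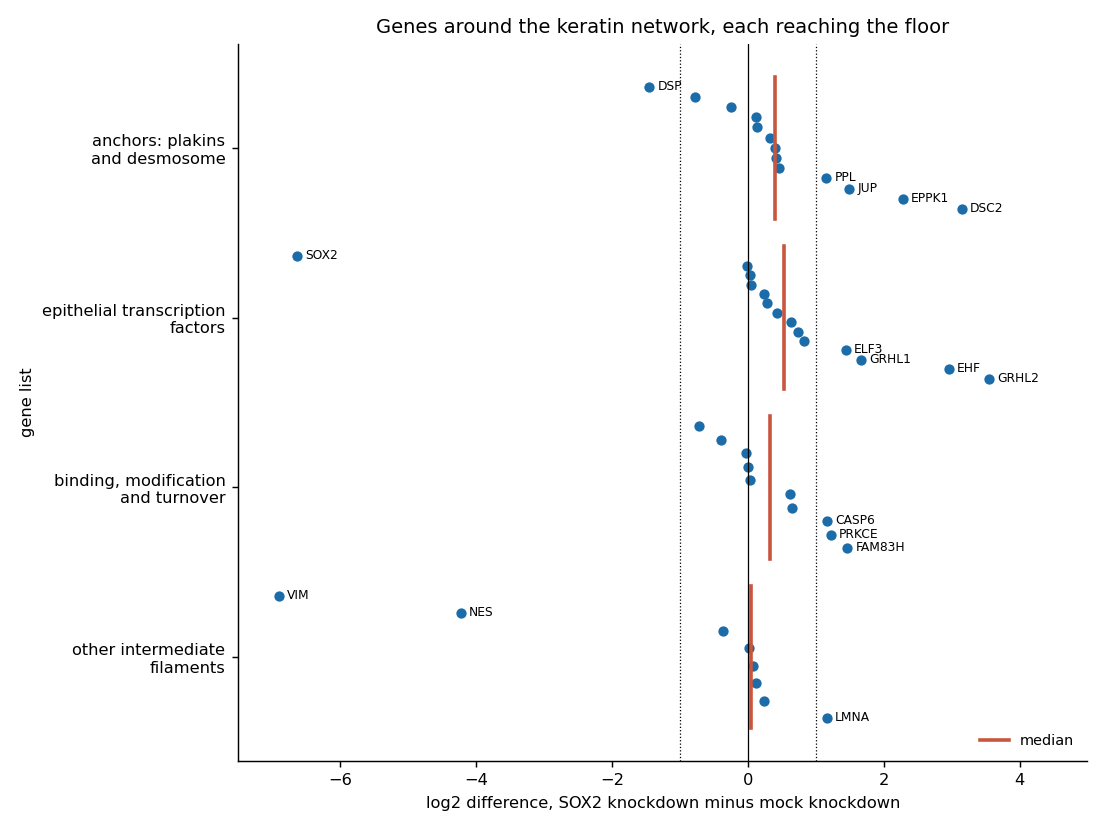
The x axis gives the log2 difference, SOX2 knockdown minus mock knockdown, of the genes of 4 lists (y axis) that reached the floor, 1 point per gene, with red bars at each list's median and dotted lines at 2-fold. DSC2 and GRHL2 lie to the right, DSP, SOX2, VIM and NES to the left, and the 4 medians run from 0.05 to 0.53; points of GRHL2, GRHL3, SOX2, NES and GFAP are deposited values whose dimmer array lies under the floor.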

How the data were processed

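Total RNA (250 ng per sample) was extracted with Trizol, labelled with biotin by in vitro transcription (Affymetrix 3′ kit) and hybridised, per the labels' protocols, with 1 array for each culture. The authors deposited 1 intensity value for every probe set on each array. RMA is the tool named in the submitters' processing notes, without version or settings. RMA usually gives log2 values, so the linear scale, read from the values, implies a further step. Its quantile step gives arrays a like distribution and hides changes in total RNA per cell.

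Of 54675 probe sets, 62 controls, 1801 with several symbols and 11721 with none were left out. The annotation is a platform table, and 41037 of the 41091 others were found by Entrez identifier in RefSeq genes of GRCh38.p14. Log2 was taken of the deposited intensity with no pseudocount or further normalization. No test was run, as each group had a single array. The named genes were the 9 keratins, SOX2, other keratins that differed by at least 1.5-fold, up to 3 genes per list and direction, and gene-order neighbours. PPL, ELF3, CDX1, CDX2, KLF4, KRT10, KRT14, LMNB1, LMNB2, the markers, pseudogenes and related genes were added after their values were seen. So were DSG2 and the genes given as examples under the floor, KRT1, KRT2, KRT31, KRT35, NEFL, NEFM and NEFH. Members and lists were chosen with earlier results of these data known. Counting past a limit was tested on simulated data, with noise below the SD between probe sets and differences planted only in genes well above the floor. That test checks the counting and does not show how reliable the counts given here are. Alternatives changed the normalization, the floor, the probe set, the pseudocount and the limit. Python 3.11.15, numpy 2.4.6, pandas 2.3.3, statsmodels 0.14.6 and matplotlib 3.10.9 were used.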

Additional observations from a re-analysis of the deposited data

How the results depend on the processing

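KRT8, KRT15, KRT18, KRT19 and KRT20 stayed above 0 and KRT23 and KRT80 below it in every setting in which they entered. KRT5 stayed above 0 as well, but KRT5 and KRT15 did not enter with the floor at the 75th percentile. All of these but KRT19 have 1 probe set, so most settings could not change their sign. Their steady signs therefore do not measure how repeatable the differences are. The median of the measured keratins ran from 0.11 to 0.19. KRT7 differed by -0.33 as the mean over its probe sets, by -0.13 at the probe set closest to 0 and by 0.19 without probe sets ending in _s_at or _x_at. In these 3 settings, and at a limit of 3-fold, 0 of the measured keratins and 1 of all keratins (KRT40) were lower past the limit; KRT7 falls just short of 3-fold. KRT8, KRT18 and KRT23 have no probe set left without those suffixes, and of all keratins 1 was then higher, since KRT13 was lost too. Where both arrays had to reach the floor, KRT20 and KRT13 dropped out and 0 keratins were at least 2-fold higher. With a limit of 1.5-fold 2 of the measured keratins were higher. KRT20 differed by 7.61 with a pseudocount of 32. SOX2 differed by -4.92 with values raised to the floor, -5.32 with the pseudocount, -2.15 as a mean over probe sets and -0.062 at the probe set closest to 0. Over all genes, 601 were higher by 2-fold or more and 530 lower at the probe set closest to 0, 2044 and 2012 passed 1.5-fold, and 604 and 467 passed 3-fold. The arrays carry no detection call, so the floor stands in for background, and KRT5 and KRT15 lie close to it. No paired analysis was possible because each group holds 1 array.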

Other observations

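Genes named for keratins without being keratins gave the following values. Of 33 genes of the keratin-associated proteins of hair, 25 stayed under the floor on both arrays. The median of the other 8 was -0.10, and 0 of them differed by 2-fold, against 15.7% of all genes. KRTCAP3, a membrane protein gene named after keratinocytes, read 80.9 with the mock hairpin and 566 with the SOX2 hairpin, a difference of 2.80. KRT10-AS1, an antisense gene at KRT10, read 431 and 658, a difference of 0.61, where KRT10 itself differed by -0.10. KRT19P2, a pseudogene of KRT19, read 92.2 and 102.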
